A study of Mus musculus with 26 samples.

Results

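The 10 genes described here act in Leydig cells of the mouse testis, and all but Insl3, which encodes a peptide hormone, serve to make or regulate testosterone. They were chosen by name, as Cyp17a1, Cyp11a1, Hsd3b1, Hsd3b6, Hsd17b3, Star, Insl3, Lhcgr, Scarb1 and Nr5a1, out of 24682 gene symbols in the count files, and all 10 were found. RNA was sequenced from C57BL/6 testes taken on postnatal day 21, in 3 sets that each had their own wild-type group: an Nkapl knockout set, a Sox30 knockout set and a set of mice labelled Nkapl TGdel/TGdel, called TGdel here. Its wild types carry the mark NE in their labels. Pachytene spermatocytes and round spermatids of wild-type and Nkapl knockout mice were also sequenced (called sorted cells here), without a strain or a method of separation in their labels. The labels state neither which part of a gene was deleted nor how the mice of a group were related, so p-values measure only the spread between these samples, which may be technical. In whole testis, fewer cells of a type and less RNA per cell cannot be told apart.

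Leydig cells lie between the seminiferous tubules and answer luteinizing hormone by turning cholesterol into testosterone. Cholesterol is taken up from lipoprotein particles, carried into mitochondria, cut to pregnenolone and then converted step by step to progesterone, androstenedione and testosterone. In the juvenile mouse testis, a fetal Leydig cell population gives way to an adult one, and the steroid enzymes rise with the adult cells.

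The 26 count files held 23 distinct libraries, because 3 pairs of files had identical values, and libraries were named by the sample in the column heading. This gave 3 wild-type against 2 knockout libraries in the Nkapl set, 3 against 2 in the Sox30 set, 2 wild-type against 3 TGdel libraries, and 2 libraries in each of the 4 sorted groups. For 4 libraries, wild type 3 of both knockout sets, NE wild type 2 and TGdel 3, the file record named another group than the heading, and results are also given without them. Nkapl wild type 3 lay between wild types 1 and 2 in 96 of 97 genes in which those differed by over 0.7 on the log2 scale (summed counts over 200). Sox30 wild type 1 lay between its fellow wild types in 731 of 757 such genes. Whether each wild-type library comes from a separate mouse was not tested, so n = 3 counts libraries. Total counts ranged from 16469667 to 40010106 per library. Levels are given in CPM, counts per 1000000 counts of the library. In the Nkapl set, Nkapl was 74.9, 79.5 and 79.9 CPM in wild type and 60.8 and 57.8 CPM in knockout. Sox30 was 78.7 ± 6.95 CPM (SD, n = 3) in wild type and 53.1 ± 11.9 CPM (SD, n = 2) in Sox30 knockout testes, a difference that did not pass the test (log2 fold change -0.57, edgeR adjusted p = 0.171). In the TGdel set, Nkapl was 101.0 and 103.0 CPM in wild type and 107.0, 117.7 and 125.7 CPM in TGdel 1, 2 and 3 (log2 fold change 0.20, edgeR adjusted p = 0.328). In sorted spermatocytes, Nkapl went against the labels: wild types had 90.1 and 86.0 CPM, and labelled knockouts 126.8 and 124.6 CPM. In spermatids it was 88.4 and 90.3 CPM in wild type and 24.6 and 23.6 CPM in knockout.

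The genes lie on 8 chromosomes of the mouse genome (coordinates from GENCODE vM21, GRCm38). Hsd3b6 (chr3:98805504-98814443) and Hsd3b1 (chr3:98852194-98859794) are neighbours on the minus strand and encode isoforms of the enzyme that makes progesterone. Their longest transcripts shared 38 of 1806 windows of 50 bases, and no window of 75 bases. Hsd3b6 shared 13.5% of its 50-base windows with Hsd3b2 and 12.5% with Hsd3b3. Insl3 (chr8:71689214-71690575) lies at the end of Jak3, and 404 of its 623 exon bases, or 64.8%, are also Jak3 exon on the same strand. Its counts were 3 to 105 per testis library and are uncertain for that reason. Cyp11a1 (chr9:58006411-58027023) overlaps the gene model Gm17322 over 3.02% of its exon bases.

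RefSeq promoters (GRCm38.p6) were matched for 6 of the genes, with 7 start sites, and not for Cyp17a1, Star, Scarb1 and Nr5a1. A window of 250 bases before the start site is printed for 3 genes because Hsd3b6 and Cyp11a1 varied widely between testes in the values below while Hsd3b1, beside Hsd3b6, did not. Capitals mark the motif AGATAA, which GATA-type transcription factors can bind, on either strand. Cyp11a1 has a pair of entries, and the window printed is the one that lies inside its GENCODE gene model and holds a motif, while the other (chr9:57997774-57998023) holds none of those searched. In Cyp11a1 capitals mark AGGTCA, the core motif of nuclear receptors such as the NR5A1 protein.
Hsd3b6 (chr3:98814444-98814693, minus strand): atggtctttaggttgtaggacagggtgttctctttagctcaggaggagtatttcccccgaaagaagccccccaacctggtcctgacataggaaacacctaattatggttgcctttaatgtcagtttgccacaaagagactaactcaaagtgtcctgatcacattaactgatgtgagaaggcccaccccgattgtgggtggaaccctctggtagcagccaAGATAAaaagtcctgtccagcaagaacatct
Hsd3b1 (chr3:98859795-98860044, minus strand): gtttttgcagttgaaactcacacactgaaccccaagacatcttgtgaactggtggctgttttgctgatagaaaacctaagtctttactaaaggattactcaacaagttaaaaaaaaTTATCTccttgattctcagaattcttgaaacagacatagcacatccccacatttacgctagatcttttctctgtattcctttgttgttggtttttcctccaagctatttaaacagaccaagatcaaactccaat
Cyp11a1 (chr9:58014702-58014951, plus strand): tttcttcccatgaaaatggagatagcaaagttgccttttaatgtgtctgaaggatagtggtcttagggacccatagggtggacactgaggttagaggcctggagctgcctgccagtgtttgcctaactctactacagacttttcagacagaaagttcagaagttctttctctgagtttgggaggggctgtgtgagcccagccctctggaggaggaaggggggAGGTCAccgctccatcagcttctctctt
AGATAA stood at -31 to -26 from the start site in Hsd3b6, and as its reverse complement TTATCT at -134 to -129 in Hsd3b1. It was found in 2 of the 7 promoters and in 11.2% of 32851 promoters of 300 bases, which reach from 250 bases before to 50 after the start. AGGTCA stood at -28 to -23 in Cyp11a1 and at -122 to -117 in Lhcgr, and 16.3% of all promoters held it. The longer forms AAGGTCA and CAAGGTCA, which contain AGGTCA, and the cyclic AMP response motif TGACGT were in none of the 7 windows, and in 4.72%, 1.56% and 7.51% of all promoters. A match describes the letters only.

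Compared per length, as CPM per kilobase of exon, the enzymes that make progesterone were the most abundant of the 10 genes in the wild-type testes. In the Nkapl set, the wild-type level of Hsd3b1 was 33.9 ± 3.60 and that of Hsd3b6 was 27.4 ± 5.97 CPM per kilobase (SD, n = 3), and the ranges of the pair overlapped. Nr5a1, which encodes a nuclear receptor that turns on steroid enzyme genes and is also made by Sertoli cells, followed at 13.9 ± 0.339 CPM per kilobase. Scarb1, Cyp17a1 and Cyp11a1 came next at 8.13 ± 0.406, 7.76 ± 1.05 and 6.39 ± 1.74 CPM per kilobase, and did not differ beyond their spread. Star (3.33 ± 0.461), Hsd17b3 (2.09 ± 0.351), Lhcgr (1.47 ± 0.0654) and Insl3 (0.838 ± 0.580) were lowest on this scale (SD, n = 3 each). The order changed in the wild-type testes of the TGdel set, where Cyp17a1 reached 38.2 ± 1.27 and Cyp11a1 26.7 ± 4.09 CPM per kilobase (SD, n = 2), both above Nr5a1 at 17.3 ± 0.397. Cyp17a1 thus spanned 10.4 to 108.4 CPM, or 10.4-fold, over the 8 wild-type testis libraries of the 3 sets, while Nr5a1 spanned 57.8 to 74.8 CPM, or 1.29-fold. The sets were scaled separately, and set and mouse line cannot be told apart.

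**Figure D1:**
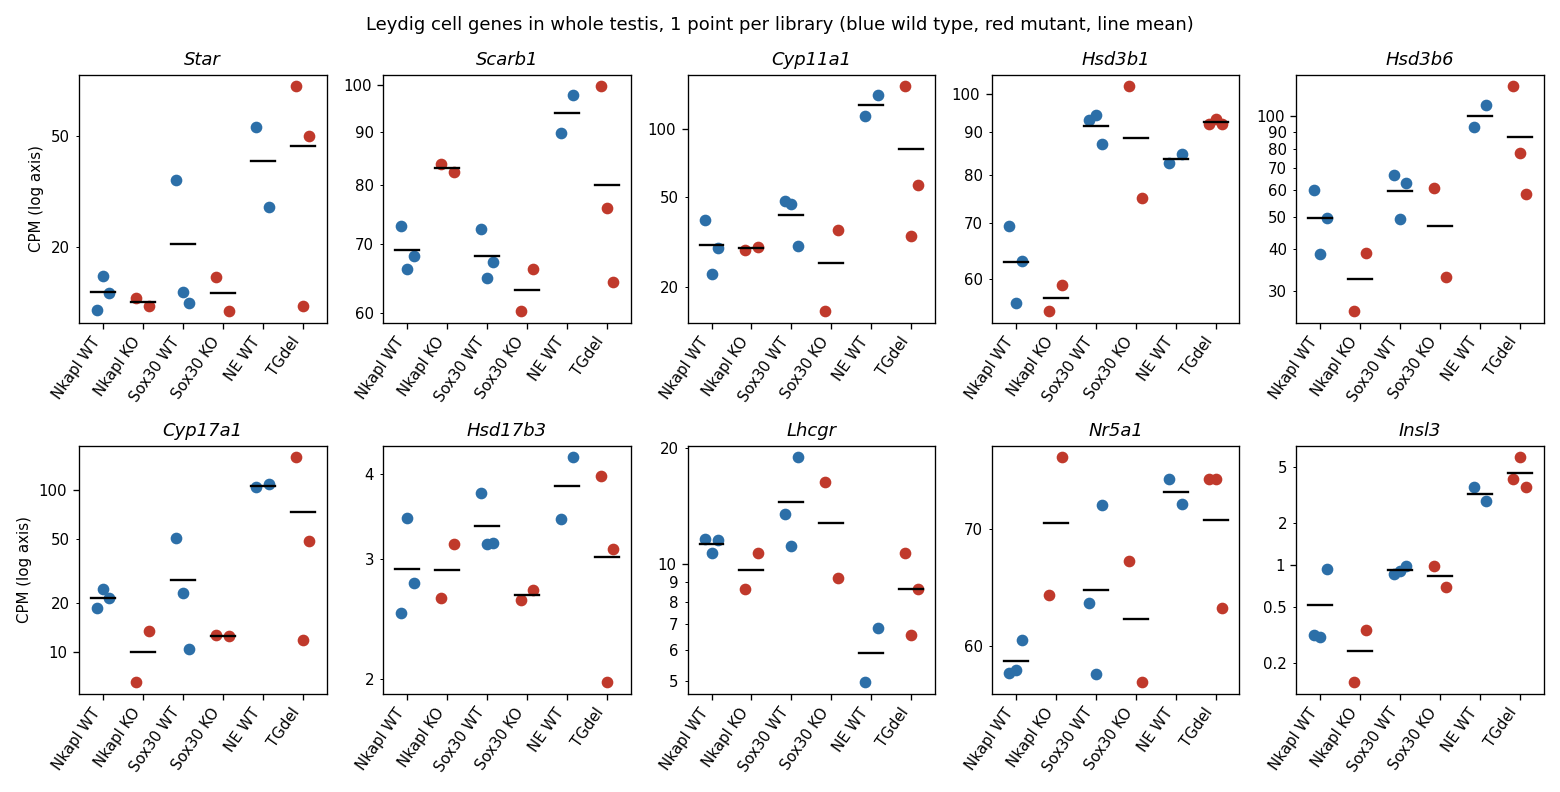
CPM (log axis, with its own range in each panel) of the 10 genes in the 15 testis libraries, 1 point per library, blue for wild type and red for mutant, with a line at the group mean; NE WT is the wild-type group of the TGdel set. Cyp17a1, Cyp11a1 and Star spread widely within some groups, most in TGdel, and little in others, while Nr5a1 and Hsd3b1 stayed within a 2-fold range in all libraries.

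In Nkapl knockout testes, 4 of the 9 genes that passed the filter on low counts changed: Cyp17a1 and Hsd3b6 fell, and Scarb1 and Nr5a1 rose. The share of all 16937 tested genes called in this comparison was 43.9% (edgeR's quasi-likelihood test, Benjamini-Hochberg adjusted p under 0.05), so 4 of 9 is near the background (17.8% were higher and 26.1% lower). The groups did not overlap for 3 of the 9, against 62.4% of all genes. Insl3 did not pass the filter. The median log2 fold change of the 9 genes was -0.12, against 0.01 over all genes.

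Cyp17a1 encodes the enzyme that turns progesterone into androstenedione. It was 18.6, 24.4 and 21.4 CPM in wild types 1, 2 and 3 and 6.47 and 13.3 CPM in knockouts 1 and 2. Both knockouts were below all 3 wild types, and the log2 fold change was -1.08 ± 0.181 (SE, edgeR adjusted p = 9.62e-05). Hsd3b6, an isoform typical of adult Leydig cells, was 60.2, 38.7 and 49.5 CPM in wild type and 26.0 and 38.9 CPM in knockout. The groups overlapped, since knockout 2 was level with wild type 2, and the log2 fold change was -0.59 ± 0.146 (edgeR adjusted p = 0.00317). This call was lost with DESeq2 (adjusted p = 0.127) and without knockout 1 (edgeR adjusted p = 0.0836).

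Scarb1, the receptor that takes up cholesterol from high-density lipoprotein, was 72.9, 66.2 and 68.3 CPM in wild type and 83.7 and 82.3 CPM in knockout. The knockouts were above all wild types, by a log2 fold change of 0.26 ± 0.0484 (edgeR adjusted p = 0.000250). Nr5a1 was 57.9, 58.1 and 60.5 CPM in wild type and 64.2 and 77.0 CPM in knockout, again without overlap. Its log2 fold change was 0.27 ± 0.0624 (edgeR adjusted p = 0.00195), and the call was lost without knockout 2 (edgeR adjusted p = 0.144). Markers of Sertoli cells, the somatic cells inside the tubules, were higher in the same knockouts. Of 18 markers 14 rose and none fell, or 77.8%, against 43.9% of all genes called and 17.8% higher. Sox9 and Cldn11 led the list (log2 fold changes 0.41 and 0.35), and its median was 0.26. In the fit of all testis libraries, which called 3351 of 17647 genes, 7 of the 18 rose and none fell. The summed level of the Sertoli markers was 2382 to 2503 CPM in wild type and 2864 to 2971 CPM in knockout, with no marker at 0, and all 12 tested markers of round spermatids fell. The part of these lists in the values of Scarb1 and Nr5a1 was not tested.

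The other 5 tested genes did not pass in the Nkapl knockout. Cyp11a1, which cuts the cholesterol side chain, was 39.5, 22.8 and 29.7 CPM in wild type and 29.1 and 30.2 CPM in knockout, inside the wild-type range (log2 fold change -0.05 ± 0.138, edgeR adjusted p = 0.815). Its value turned with the wild types kept, from 0.19 without wild type 1 (edgeR adjusted p = 0.0788) to -0.22 without wild type 2, where it passed (0.0371), as Hsd3b1 did (-0.21, 0.00297). Star, which carries cholesterol into mitochondria, was 11.9 to 15.6 CPM in wild type and 12.2 to 13.1 CPM in knockout. Hsd17b3, which makes testosterone from androstenedione, had a log2 fold change of 0.00 ± 0.199. Hsd3b1 was at 62.8 ± 6.68 CPM (SD, n = 3) in wild type and 56.9 ± 2.97 CPM (SD, n = 2) in knockout. Lhcgr, the receptor for luteinizing hormone, was 11.6, 10.7 and 11.5 CPM in wild type and 8.61 and 10.7 CPM in knockout. Insl3, which encodes a peptide hormone of Leydig cells, had 7, 7 and 21 counts in wild type and 3 and 9 counts in knockout.

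The 4 calls depended on which libraries entered the fit. Fitted together with the other testis libraries, which share 1 estimate of the spread, none of the 10 genes passed (Cyp17a1 log2 fold change -1.06, edgeR adjusted p = 0.373; Nr5a1 0.29, adjusted p = 0.0668), while 3351 genes still did. Without wild type 3, whose file record names a knockout, the 4 calls stood (Cyp17a1 -1.09, edgeR adjusted p = 0.00154; Hsd3b6 -0.59, 0.0187; Scarb1 0.25, 0.00413; Nr5a1 0.29, 0.00869), and with that library moved to the knockouts none did.

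The lists of the wider pathway are read against the 43.9% of all genes called in this comparison. Of 30 genes that make, take up or move cholesterol, 7 rose and 7 fell, or 46.7%, with a median log2 fold change of 0.03. Those with the smallest p were Fdft1, the enzyme that makes squalene, at 182.0 ± 0.709 CPM (SD, n = 3) in wild type and 96.2 ± 4.62 CPM (SD, n = 2) in knockout (log2 fold change -0.92 ± 0.0414), Sqle, which oxidises squalene (-0.35 ± 0.0421), Scap, the escort of the cholesterol-sensing transcription factors (0.28 ± 0.0481), and the carrier Scp2 (-0.39 ± 0.0854). Of 20 other steroid enzymes and partners, 2 rose and none fell, under that share: Cyb5a, the cytochrome that helps CYP17A1 make androgens (0.20 ± 0.0610), and Hsd17b7 (0.34 ± 0.107). Of 23 tested Leydig cell regulators and receptors, 11 rose and 3 fell, or 60.9%: Igf1r and Ptch1, the receptors for insulin-like growth factor and hedgehog ligands, rose by 0.41 and 0.39 on the log2 scale, and Nr4a1, a nuclear receptor that luteinizing hormone induces in Leydig cells, fell by 0.96. Of 13 other Leydig cell markers, 23.1% changed: 1 rose (Thbs2, 0.52 ± 0.113) and 2 fell (Fabp3, -0.68 ± 0.170; Klk1b21, -0.85 ± 0.324), and their summed level was 367 to 487 CPM in wild type and 430 to 446 CPM in knockout. In the fit of all testis libraries, which was added after the values were seen, these counts became 0 higher and 2 lower for cholesterol, 0 for steroid partners, 4 higher for regulators and 0 for other Leydig markers. That fit called 3351 of 17647 genes, a smaller share than 43.9%.

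In Sox30 knockout testes none of the 10 genes passed the test, also with DESeq2 and limma-voom, and none had an unadjusted p under 0.05; 2.42% of all 17816 tested genes were called. All 10 log2 fold changes were below 0, with a median of -0.26 against 0.00 over all genes. Cyp17a1 was 50.1, 23.2 and 10.4 CPM in wild types 1, 2 and 3 and 12.7 and 12.5 CPM in the knockouts. The wild types spanned 4.82-fold and enclosed the knockouts, and the log2 fold change was -1.15 ± 0.567 (SE, edgeR adjusted p = 0.734). Without wild type 3, whose file record names a knockout, it was -1.56 and passed (edgeR adjusted p = 0.0465), and 8 of the 10 log2 fold changes were below 0.

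Cyp11a1 in this set was 47.8, 46.8 and 30.3 CPM in wild type and 15.6 and 35.7 CPM in knockout (log2 fold change -0.70 ± 0.352, edgeR adjusted p = 0.758). Star was 34.8, 13.8 and 12.5 CPM in wild type and 15.6 and 11.7 CPM in knockout, so wild type 1 stood above the rest as it did for Cyp17a1. Hsd17b3 was the only one of the 10 whose groups did not overlap, at 3.75, 3.16 and 3.17 CPM in wild type and 2.62 and 2.70 CPM in knockout, which 21.0% of all genes also showed. Hsd3b6 reached 61.2 CPM in knockout 1 and 32.9 CPM in knockout 2, around a wild-type range of 49.2 to 66.9 CPM. Scarb1 and Nr5a1 had log2 fold changes of -0.11 ± 0.0971 and -0.05 ± 0.127, and Hsd3b1 of -0.05 ± 0.138. Insl3 (-0.13 ± 0.319) and Lhcgr (-0.19 ± 0.299) likewise did not pass.

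Markers of the epididymis, where sperm mature after leaving the testis, moved with the Sox30 genotype. Of the 6 tested, 5 rose (Adam7 and Crisp1 had the smallest p), and the 14 listed markers summed to 59.1 and 104.0 CPM in the knockouts against 5.76 to 7.43 CPM in the wild types; knockout tissue and epididymal RNA cannot be told apart in this set. None of the cholesterol, steroid partner, regulator and other Leydig lists had a called gene (0 of 30, 22, 23 and 14 tested). The summed level of the other Leydig markers was 503 to 605 CPM in wild type, and 644 and 416 CPM in knockouts 1 and 2.

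In TGdel testes none of the 10 genes passed the test either, with edgeR, DESeq2 or limma-voom, none had an unadjusted p under 0.05, and 1.25% of all 16011 tested genes were called. Cyp17a1 was 103.4 and 108.4 CPM in wild type and 159.9, 11.8 and 48.1 CPM in TGdel 1, 2 and 3. The 3 mutants spanned 13.6-fold, with TGdel 1 above both wild types and the others below (log2 fold change -0.54 ± 0.739, edgeR adjusted p = 0.799). Cyp11a1 followed the same order, at 114.3 and 142.0 CPM in wild type and 155.2, 33.6 and 56.4 CPM in TGdel 1, 2 and 3. Star did as well among the mutants, at 75.5, 12.3 and 50.2 CPM, with wild types at 53.7 and 27.7 CPM. Hsd3b6 was 93.2 and 108.0 CPM in wild type and 123.2, 77.7 and 58.6 CPM in TGdel 1, 2 and 3.

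Hsd3b1 did not share that spread, at 82.5 and 84.7 CPM in wild type and 92.0, 93.3 and 92.0 CPM in TGdel. The mutants were above both wild types, as in 33.5% of all genes without overlap in either direction, and the log2 fold change of 0.14 ± 0.0699 did not pass (edgeR adjusted p = 0.374). Lhcgr had the lowest adjusted p of the 10 (0.328, edgeR), at 4.95 and 6.83 CPM in wild type and 10.7, 6.56 and 8.63 CPM in TGdel. Insl3 had 64 and 52 counts in wild type and 68, 105 and 63 counts in TGdel, with no overlap in CPM. Scarb1 was 93.8 ± 5.68 CPM (SD, n = 2) in wild type and 80.0 ± 18.0 CPM (SD, n = 3) in TGdel, and Nr5a1 73.6 ± 1.68 and 70.9 ± 6.79 CPM.

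The TGdel values depended on TGdel 1. Without it, Cyp17a1 (log2 fold change -1.83, edgeR adjusted p = 0.0415), Cyp11a1 (-1.51, 0.00430) and Hsd3b6 (-0.56, 0.0488) passed, all lower in TGdel. Without the 2 libraries whose record and heading disagree, 1 wild type and 2 TGdel libraries were left, none of the 10 genes passed, and Cyp17a1 was at -0.27. Epididymis markers summed to 62.5 CPM in wild type 1 and 36.6 CPM in TGdel 1, against 5.75 to 8.15 CPM in the other 3 libraries of the set, so that both genotypes held such a library; their part in these values was not tested. The 5 listed adrenal cortex markers summed to 10.2 and 8.04 CPM in wild type and to 11.0, 4.13 and 3.68 CPM in TGdel 1, 2 and 3, most of it from Mrap. Of the adrenal enzymes Cyp11b1 and Cyp11b2, no library of the set had more than 6 counts, and both were at 0 in TGdel 2 and 3; the part of this list in the spread of Cyp17a1 and Cyp11a1 was not tested. No gene of the cholesterol, steroid partner, regulator or other Leydig lists was called (0 of 30, 19, 23 and 14 tested). The other Leydig markers summed to 590 and 648 CPM in wild type and to 647, 825 and 743 CPM in TGdel 1, 2 and 3, so TGdel 2, lowest for Cyp17a1, was highest for this list.

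**Figure D2:**
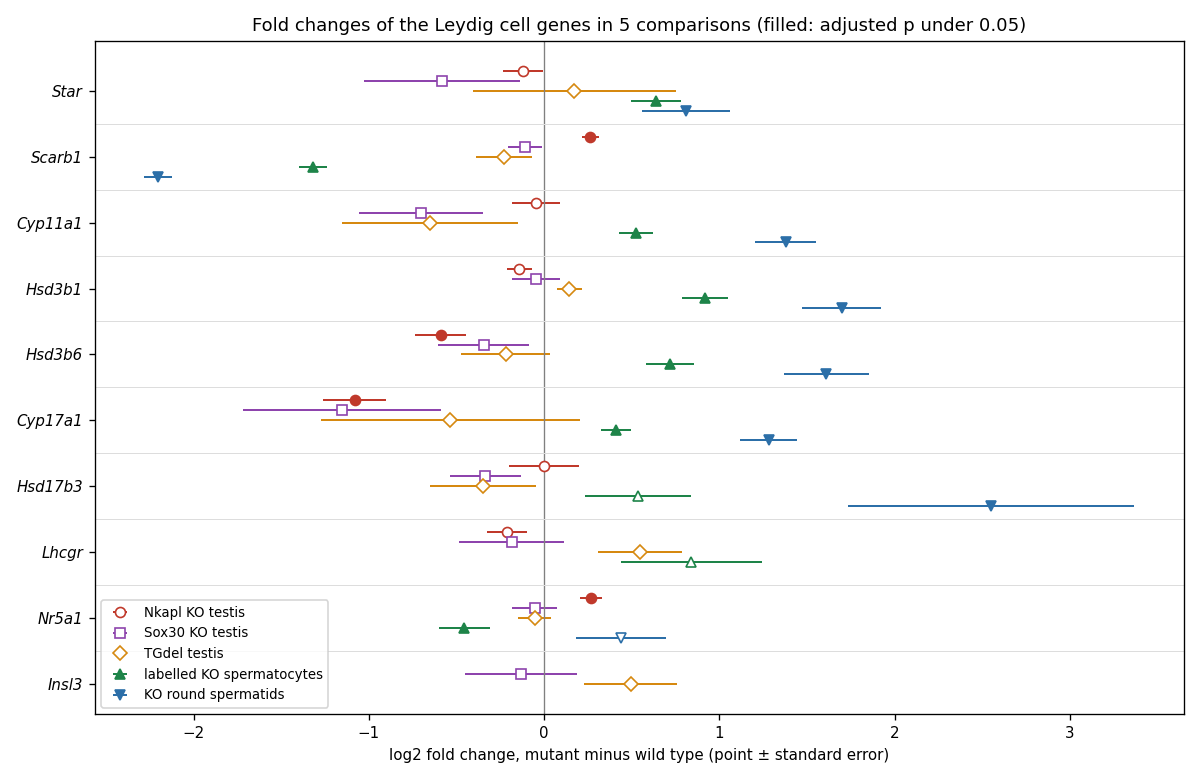
Log2 fold change of each gene, mutant minus wild type, with its standard error, in the 3 testis comparisons and the 2 comparisons of sorted cells; filled points passed the adjusted p of 0.05. Lhcgr in spermatids is left out because its wild-type libraries had no counts, and Insl3 is shown only where it passed the filter. In testis the filled points are Cyp17a1, Hsd3b6, Scarb1 and Nr5a1 in the Nkapl knockout.

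Differences between the genotype effects were tested in 1 fit of the 15 testis libraries. None of the 10 genes differed between the Nkapl and the Sox30 knockout effect, where 3.84% of 17647 genes did, or between the Nkapl knockout and the TGdel effect, where 0.295% did. limma-voom called none either, and 2 and 3 of the 10 genes had an unadjusted p under 0.05 in edgeR's test. For Cyp17a1 the Nkapl minus Sox30 difference was 0.09 ± 1.09 on the log2 scale (SE), an interval too wide to say that the effects were alike. Scarb1 came closest in the comparison with TGdel (0.51 ± 0.175, edgeR adjusted p = 0.148), and passed without TGdel 1 (0.69, edgeR adjusted p = 0.0124).

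Several of the 10 genes were among the most variable of the testis transcriptome between libraries of the same genotype. The within-group standard deviation of Cyp17a1 was 1.07 on the log2 CPM scale (9 residual degrees of freedom, 15 libraries), rank 16 of 13821 genes, against a median of 0.13. Star followed with 0.80 (rank 154), Cyp11a1 with 0.66 (rank 224), Hsd3b6 with 0.41 (rank 483), Lhcgr with 0.34 (rank 694) and Hsd17b3 with 0.28 (rank 1138). Insl3 had 0.48 on few counts. Its mean log2 CPM of 0.25 was under the minimum of 1 for ranked genes, so it has no rank among them. Scarb1 at 0.16, Hsd3b1 at 0.13 and Nr5a1 at 0.13 lay near the median of all genes. The split runs through the pathway: the pair of neighbouring genes Hsd3b1 and Hsd3b6, whose promoters are printed above, lay on opposite sides of it.

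**Figure D3:**
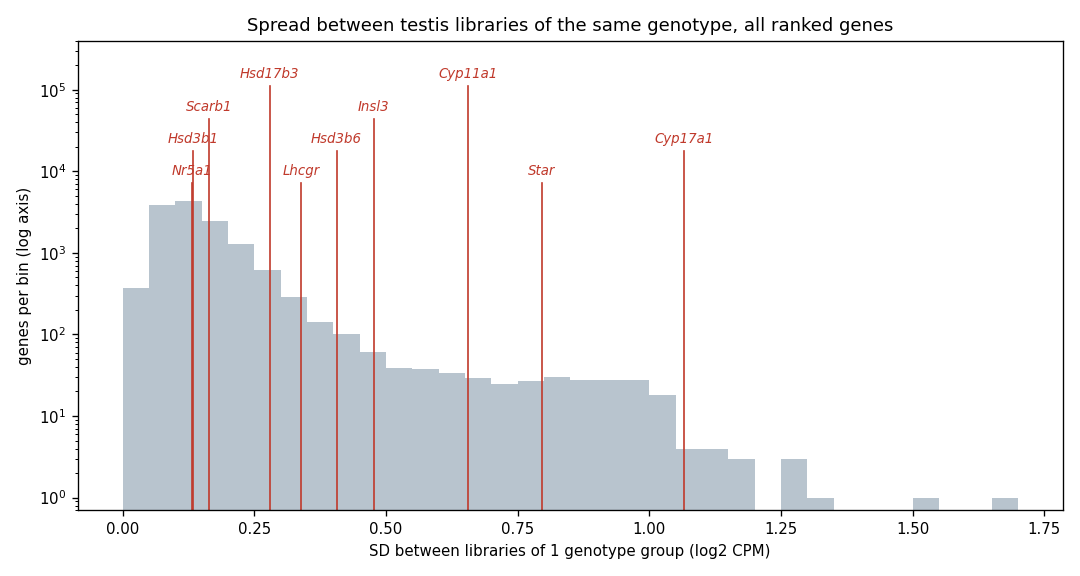
Standard deviation between testis libraries of the same genotype (log2 CPM) for 13821 genes, as the number of genes per bin on a log axis, with red lines at the 10 Leydig cell genes. Line heights carry no value, and Insl3 is drawn although its level is below that of the 13821 genes. Cyp17a1 at 1.07 lies in the far tail, and Nr5a1 and Hsd3b1 at 0.13 lie at the peak.

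The mean of the 10 genes, centred on each testis set, was matched against 12902 other genes over the 15 libraries. The nearest was Cyp51, an enzyme of late cholesterol synthesis, with Pearson's r = 0.92 (Spearman's rho = 0.94, and r = 0.86 without the 2 libraries farthest from its median). Cyp51 ranged from 18.5 CPM in Nkapl knockout 1 to 43.8 CPM in TGdel 1, the library that was also highest for Cyp17a1. Elovl6, which lengthens fatty acids, had r = 0.89, and Sc5d, another enzyme of late cholesterol synthesis, had r = 0.86, as did Idh1, a cytosolic enzyme that makes NADPH. Wwp1 (0.87), Tubb6 (0.86), Gda (0.84) and Mir22hg (0.84) complete the 8 highest. These values describe libraries that share genotype groups, depth and tissue makeup, the 8 genes were picked for them, and Cyp17a1 has the widest spread of the 10 genes in the mean. In sorted cells, Cyp51 was far more abundant in spermatids (126.5 and 130.5 CPM in wild type) than in any testis library, and it was 49.8 and 48.9 CPM in wild-type spermatocytes.

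**Figure D4:**
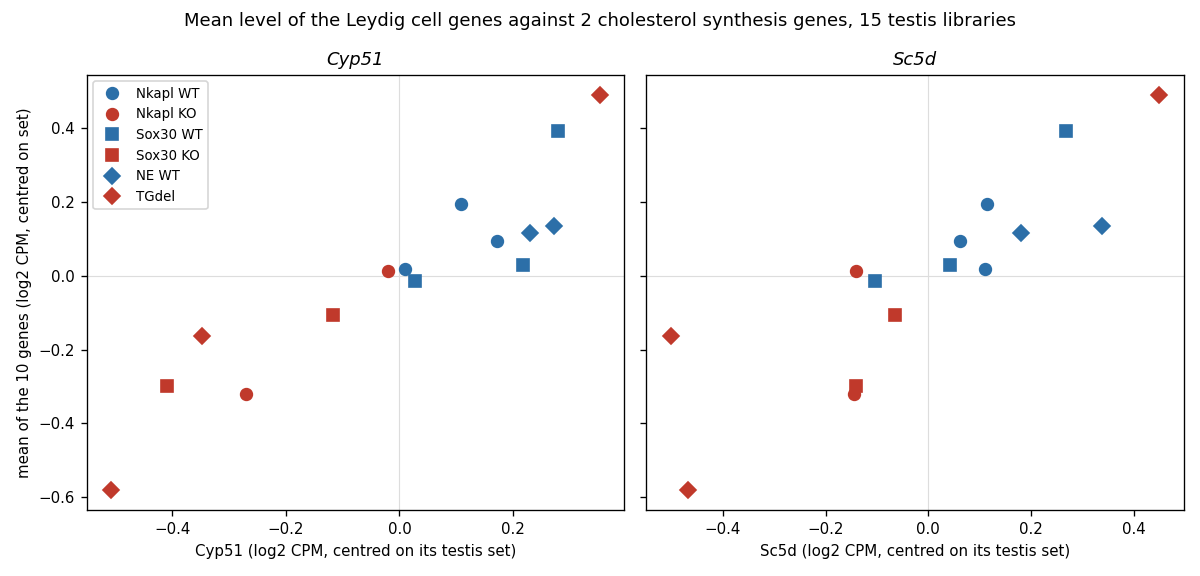
Mean log2 CPM of the 10 genes against Cyp51 and against Sc5d, each centred on its testis set, 1 point per testis library (circles Nkapl set, squares Sox30 set, diamonds TGdel set, blue wild type, red mutant). TGdel 1 is at the upper right and TGdel 2 at the lower left of both panels.

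In wild-type spermatids most of these genes were at a low level and Scarb1 was not, while in wild-type spermatocytes Cyp17a1 too was near its testis level. In wild-type spermatids the 9 genes other than Scarb1 summed to 10.9 and 10.6 CPM, while Scarb1 alone was 71.3 and 71.6 CPM, or 86.7% and 87.1% of the total of all 10. Nkapl-set wild-type testes, which were scaled separately, had a Scarb1 mean of 69.1 CPM and 230.2 to 271.9 CPM for the other 9. In wild-type spermatocytes Scarb1 was 41.3 and 45.4 CPM and the other 9 summed to 51.2 and 51.9 CPM. The other 9 were not in 1 ratio to testis: wild-type spermatocytes had 80.0% of the testis level of Cyp17a1 (62.7% for Scarb1), 39.5% of Cyp11a1, 34.1% of Star and 30.2% of Hsd17b3, but 8.76% of Hsd3b1, 9.37% of Hsd3b6, 10.2% of Nr5a1 and 4.09% of Lhcgr. Cyp17a1, Cyp11a1 and Star are also those whose testis level varied most, so their percentages depend on the testes compared.

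In spermatids, 8 of the 9 tested genes changed with the Nkapl genotype, 7 higher and 1 lower in knockout, where 60.0% of all 15805 tested genes were called (29.0% higher and 31.0% lower). Scarb1 fell from 71.3 and 71.6 CPM in wild type to 15.3 and 15.7 CPM in knockout, a log2 fold change of -2.20 ± 0.0788 (SE, edgeR adjusted p = 5.78e-20). The libraries of each genotype lay close together and far from the other genotype. Nkapl itself fell by 1.89 on the log2 scale in these libraries.

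The enzymes went the other way at low levels. Cyp17a1 was 2.98 and 3.01 CPM in wild-type and 6.82 and 7.74 CPM in knockout spermatids (log2 fold change 1.28 ± 0.160, edgeR adjusted p = 6.24e-08), and Cyp11a1 was 2.39 and 2.31 against 6.59 and 5.68 CPM (1.38 ± 0.174). Hsd3b1 rose from 1.17 and 1.56 to 3.90 and 4.99 CPM (1.70 ± 0.227) and Hsd3b6 from 1.28 and 0.925 to 3.15 and 3.61 CPM (1.61 ± 0.242). Star rose from 1.81 and 1.10 to 2.41 and 2.70 CPM (0.81 ± 0.249, edgeR adjusted p = 0.00625), a call lost without wild type 2 (0.168) and without knockout 2 (0.0538). The groups did not overlap for any of the 9 tested genes, as for 79.9% of all genes.

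Hsd17b3 had 1 count in each wild-type spermatid library and 7 and 6 counts in the knockouts, a ratio of 6.41 (95% conditional exact interval 1.45 to 58.5, for counting error only), and its call was lost with DESeq2 (adjusted p = 0.0538) and without either wild-type library (edgeR adjusted p = 0.0519 and 0.0523). Lhcgr had no counts in wild-type spermatids and 8 and 6 counts in knockout, which is at least 4.61-fold higher when 3 counts over the wild-type group are taken as the floor. Nr5a1 was 1.23 and 1.56 CPM in wild type and 2.01 and 1.78 CPM in knockout and did not pass (log2 fold change 0.44 ± 0.258, edgeR adjusted p = 0.151), and Insl3 had 2 counts in each genotype. The median log2 fold change of the 9 tested genes was 1.38, also with Lhcgr at its bound, against 0.03 over all genes.

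Called genes in the lists of other somatic cells went in different directions in the same knockout spermatids. The shares are read against the 60.0% of all genes called in this comparison (29.0% higher and 31.0% lower). Of 10 tested macrophage markers 9 rose (led by Lyz2 and Csf1r) and none fell, or 90.0%. The macrophage sums were 22.7 and 22.9 CPM in wild type and 51.8 and 50.1 CPM in knockout, with at most 1 marker at 0 in a library. Of 11 other Leydig markers 7 rose and 1 fell, or 72.7%. Aldh1a1, Ephx1 and Vcam1 rose by 1.02, 2.13 and 1.32 on the log2 scale and Bmp6 fell by 3.15. The 14 listed Leydig markers summed to 19.7 and 18.9 CPM in wild type and 35.2 and 36.2 CPM in knockout, with 0 to 3 of the 14 at 0. Of 18 Sertoli markers 4 rose (Trf and Ctsl with the smallest p) and none fell, or 22.2%, with sums of 73.6 and 72.9 CPM in wild type and 89.3 and 91.0 CPM in knockout. Of 6 tested peritubular myoid markers none rose and 2 fell (Actg2 and Cnn1), or 33.3%. Their log2 fold changes were above 0 for 3 and below 0 for 3, with a median of -0.03, so they had no common direction. The sum of the 8 listed markers fell nonetheless, from 280.3 and 273.0 CPM in wild type to 119.4 and 119.8 CPM in knockout. Nkapl-set wild-type testes, scaled separately, had 292 to 335 CPM for them. Of 7 endothelial markers 2 rose and 2 fell, or 57.1%, with sums of 21.5 and 22.1 CPM against 20.3 and 19.6 CPM. All 14 round spermatid markers fell, with sums of 10164 to 10617 CPM in wild type and 3911 to 3938 CPM in knockout. Wild-type spermatocytes had 3209 to 3296 CPM for the same markers. The part of all these lists in the values of the 10 genes was not tested.

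The libraries labelled knockout spermatocytes, in which Nkapl was higher than in wild type, had 7 of 9 tested genes called, 5 higher and 2 lower, where 59.2% of 15805 genes were called (33.6% higher and 25.7% lower). The groups did not overlap for any of the 9, as for 77.9% of all genes. All directions here follow the labels. All 14 round spermatid markers fell in the labelled knockouts, as they did in spermatids, with sums of 3209 and 3296 CPM in wild type and 1484 and 1446 CPM in the labelled knockouts. Scarb1 was 41.3 and 45.4 CPM in wild type and 18.2 and 16.5 CPM in labelled knockouts (log2 fold change -1.32 ± 0.0782, edgeR adjusted p = 1.60e-14), without overlap. Cyp17a1 was 17.2 and 17.2 CPM against 21.6 and 24.0 CPM (0.41 ± 0.0871, edgeR adjusted p = 0.000189). Among the 9 tested genes, Hsd3b1 had the largest log2 fold change upward, from 5.46 and 5.55 to 9.65 and 11.2 CPM (0.92 ± 0.132).

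Cyp11a1 rose by 0.52, Star by 0.64 and Hsd3b6 by 0.72 on the log2 scale in these spermatocyte libraries, while Hsd17b3 (0.53 ± 0.303) and Lhcgr (0.84 ± 0.400) did not pass. Insl3 had 4 counts in wild type and 7 in the labelled knockouts and was not tested. Nr5a1 was 6.02 and 6.01 CPM in wild type and 4.28 and 4.50 CPM in the labelled knockouts, a log2 fold change of -0.45 ± 0.146 (edgeR adjusted p = 0.00871). That call was lost with DESeq2 (adjusted p = 0.126) and without labelled knockout 1 (edgeR adjusted p = 0.0687). Of 18 Sertoli markers 10 fell and 1 rose, led by Clu and Amhr2. That is 61.1% called, near the 59.2% of all genes (33.6% higher and 25.7% lower). The Sertoli markers summed to 391.8 and 419.3 CPM in wild type and 281.2 and 287.9 CPM in the labelled knockouts, with none at 0. Of 11 other Leydig markers 7 rose and 1 fell, or 72.7% (Thbs2 and Vcam1 by 1.69 and 0.75, Fabp3 by 0.62, and Bmp6 at -2.34). Their sums were 46.7 and 48.8 CPM against 61.9 and 62.6 CPM. The part of both lists in the values of the 10 genes was not tested.

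The change with the label was tested for a difference between the cell types, a comparison added after the values were seen. It differed for 7 of the 9 tested genes, where 25.5% of all genes did, and not for Star (0.17 ± 0.288 on the log2 scale, spermatids minus spermatocytes, edgeR adjusted p = 0.715) or Hsd17b3 (2.02 ± 0.894, adjusted p = 0.0980).

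Genes that make or move cholesterol changed in both directions in the sorted cells, 6 higher and 10 lower of 30 in the labelled spermatocytes and 7 higher and 9 lower in spermatids. That is 53.3% in each, against 59.2% and 60.0% of all genes. Cyp51 fell by 0.91 and 0.99 on the log2 scale in the respective cell types and Scp2 by 0.89 and 0.86. Fdps, which makes farnesyl diphosphate, and Lipe, the hormone-sensitive lipase, fell by 1.22 and 1.44 in spermatids, and Tm7sf2 rose by 0.89 in the labelled spermatocytes. Of 18 other steroid enzymes and partners, 8 rose in each comparison and 2 fell in spermatids, or 44.4% and 55.6%, again under the share of all genes. Fdx1, the electron donor of CYP11A1, rose by 0.39 in the labelled spermatocytes and Srd5a1, which reduces testosterone, by 0.92 in spermatids, while Cyp19a1, which makes estrogen, fell by 1.17 in spermatids.

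**Figure D5:**
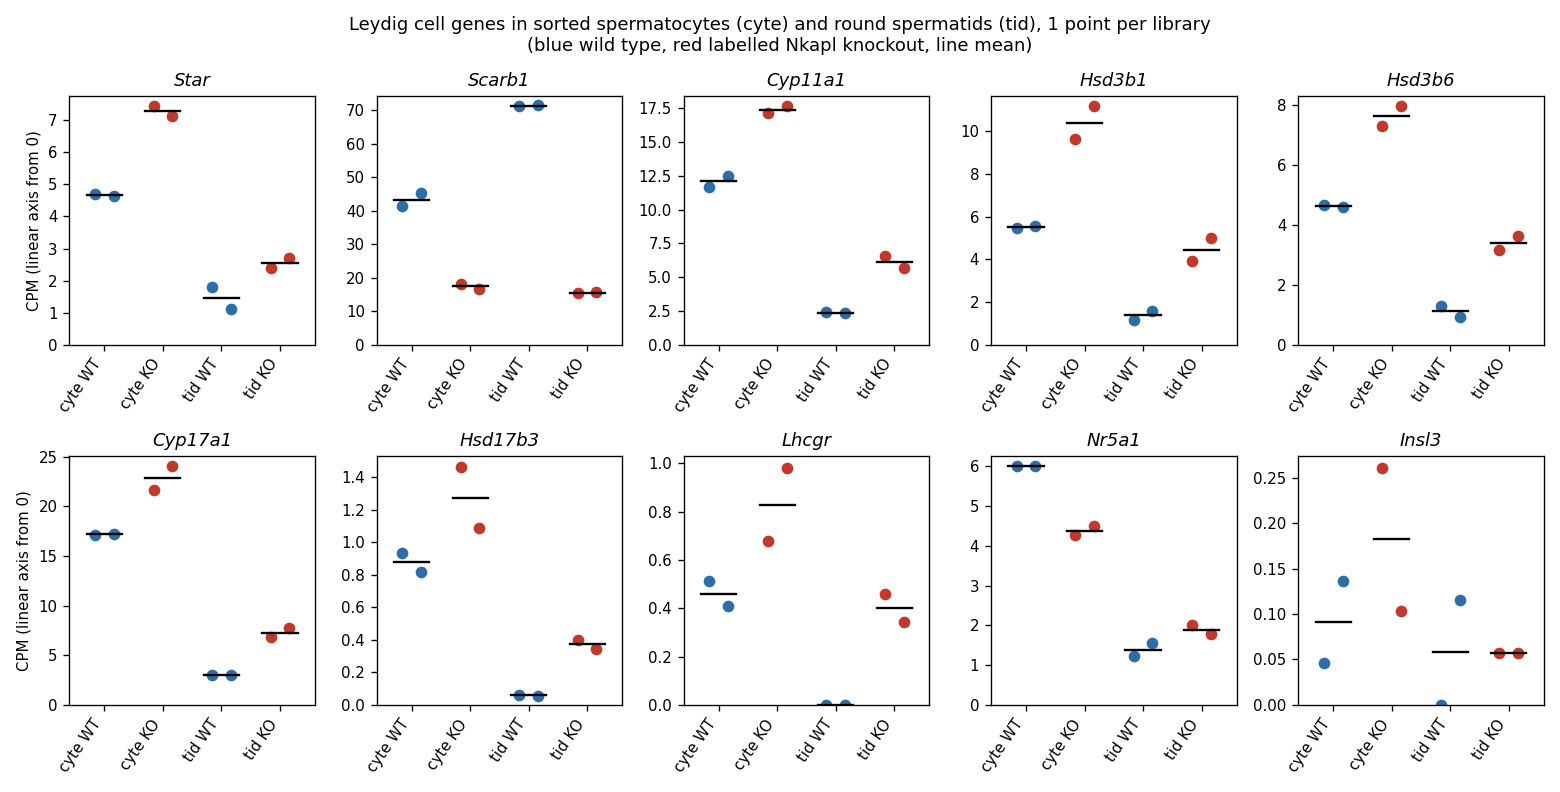
CPM (linear axis from 0, with its own range in each panel) of the 10 genes in the 8 sorted libraries, spermatocytes (cyte) and round spermatids (tid), blue for wild type and red for libraries labelled Nkapl knockout, with a line at the group mean of n = 2. Scarb1 is lower in the labelled knockouts of both cell types, and Nr5a1 is lower in those of the spermatocytes and higher in those of the spermatids, where it did not pass the test.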

How the data were processed

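The authors deposited counts of reads for each gene symbol, as whole numbers and without scaling, for testes and sorted cells. RNA was isolated with TRIzol, and the TruSeq Stranded Total RNA kit was used, per the labels' protocols. The submitters' processing notes name HISAT2 2.1.0, HTSeq, DESeq2 and mm10 without roles. Gene annotation and strand setting: not given in the sources used here. Reads assigned to no gene were left out of totals. In the sorted files they were 18.8% to 20% of reads in wild type and 23.2% to 24.6% in the labelled knockouts. The part of this difference in the sorted-cell comparisons was not tested.

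Libraries were grouped by the sample in the column heading, since 15 of 18 testis files carry the heading of another sample, and files with identical values were counted once. Testis sets had a fit each and the 8 sorted libraries a common one, with edgeR 4.0.16 in R 4.3.3 (filterByExpr by group, TMM scaling, quasi-likelihood F test, two-sided, Benjamini-Hochberg adjusted p under 0.05). An adjusted p printed with no tool comes from that test. The SE was taken as the size of the log2 fold change over the root of its F value. CPM were scaled by the TMM factors of the same fit, and CPM per kilobase use union exon lengths of GENCODE vM21. Effect differences in testis were contrasts in a fit of the 15 testis libraries; that between the sorted cell types was added after the values were seen. Alternatives were DESeq2 1.42.0, its size factors in edgeR, limma-voom (limma 3.58.1), no filter, a replicate block, other groupings and leaving out each library. The test scripts were checked on simulated counts.

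The genes described and the gene lists were chosen with earlier results of these data known. Named genes were the 10 genes, the targeted genes, of each related list up to 4 called genes with the smallest p (2 for lists of other cell types), and the 8 genes with the most similar pattern at a mean log2 CPM of at least 1; 1 gene under this rule is not reported here. Same-numbered libraries were checked for pairing.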

Additional observations from a re-analysis of the deposited data

Results flagged for a closer look

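For 7 of the 9 tested genes, the change with the Nkapl knockout label differed between spermatids and spermatocytes, by a test of the difference itself in the fit of the 8 sorted libraries, which was added after the values were seen; 25.5% of 15805 genes did so. On the log2 scale, the spermatid change minus the spermatocyte change was 0.87 for Cyp17a1 (edgeR adjusted p = 0.000854), 0.86 for Cyp11a1 (0.00233), 0.78 for Hsd3b1 (0.0340), 0.89 for Hsd3b6 (0.0219) and 0.89 for Nr5a1 (0.0262). For Scarb1 it was -0.88 (edgeR adjusted p = 1.38e-06), since the fall was larger in spermatids. For Lhcgr it was 5.11 (edgeR adjusted p = 0.0154), a value that depends on the prior count because wild-type spermatids had no counts. With 1 library left out, 4 to 7 genes were called. The calls of Cyp17a1, Cyp11a1 and Scarb1 stood in each case. That of Hsd3b1 was lost without spermatid wild type 1, spermatocyte knockout 1 or spermatid knockout 2 (edgeR adjusted p = 0.184, 0.101 and 0.140) and without the filter (0.0506). That of Hsd3b6 was lost without spermatid wild type 2, spermatocyte knockout 1 or spermatid knockout 2 (0.134, 0.0612 and 0.0734). That of Nr5a1 was lost without spermatid wild type 1, spermatocyte knockout 1 or spermatid knockout 1 (0.113, 0.0663 and 0.101). That of Lhcgr was lost without either spermatid wild type (0.0855 and 0.0840) or spermatid knockout 1 (0.0507). Nkapl was higher in the spermatocyte libraries labelled knockout and lower in the knockout spermatids, and the round spermatid markers were lower in both, so the directions rest on the labels.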

How the results depend on the processing

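Of 963 recomputed values of the 10 genes, 920 kept their side of the threshold, 12 passed only under the alternative and 31 no longer passed. The sign was another one in 66 of the 920, all of values that were called in neither setting. In the Nkapl testis set, 0 genes of the 10 were called when libraries were grouped by file record (0 genes of all, against 7433) and 0 in the joint fit of all testis libraries (3351 of all), and 3 to 6 when 1 library was left out. Same-numbered libraries had correlated deviations of r = 0.11 and 0.62 in the Sox30 set, 0.06 and 0.05 in the Nkapl set and -0.31 and -0.30 in the TGdel set, over only 2 shared numbers. No label ties the numbers to a litter or batch, so they were not taken as pairs. In the Sox30 set, with the replicate block 4 of the 10 genes were called, all lower (Cyp17a1 at -1.45, Cyp11a1 at -0.99, Hsd3b6 at -0.35 and Star at -0.72). Sox30 wild type 3 has no knockout of its number, so that fit compares only libraries 1 and 2 of each genotype. It leaves little to estimate the spread from, and its calls are uncertain. In that set 0 to 1 were called when 1 library was left out, and 1 with only libraries whose record and heading name 1 group; the count over all genes went from 432 to 765 with DESeq2, 1728 with the replicate block, 80 with limma-voom, 693 with those libraries only, 896 in the joint fit and 0 by file record, and to 20 to 693 with 1 library left out. In the TGdel set 0 to 3 of the 10 were called with 1 library left out, and the 200 genes of all became 576 with DESeq2, 88 without the filter, 0 with the replicate block, 328 with concordant libraries only, 425 in the joint fit, 0 by file record and 0 to 504 with 1 library left out. The replicate block changed no count of the 10 genes in the other comparisons. For the differences between effects, 0 of the 10 were called with 1 library left out for Nkapl against Sox30, 0 to 1 for Nkapl against TGdel and 4 to 7 for spermatids against spermatocytes; the 677 genes of the first became 228 with limma-voom and 94 with concordant libraries, and the 52 of the second became 100 without the filter, 1 with limma-voom, 0 with concordant libraries and 1 with the replicate block. With 1 library left out they ranged from 79 to 1926 and from 0 to 581, and the 4025 genes of the third from 2679 to 4449. In spermatids 6 to 8 and in labelled spermatocytes 6 to 7 of the 10 were called with 1 library left out, where a lone library is assumed to vary like the other groups. Counts of 0 to 28 per library limit Hsd17b3, Lhcgr and Insl3 in sorted cells.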
